A study of Mus musculus with 18 samples.

Results

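The transcripts described here belong to 33 mouse genes of protein folding in the endoplasmic reticulum (ER), the unfolded protein response and the integrated stress response. They were taken from a list of gene symbols and matched to the Ensembl gene IDs of the expression tables, which hold 55487 gene IDs. By role, 15 of the genes encode ER chaperones and foldases, 8 serve ER-associated degradation or the translocon, 6 are stress sensors and transcription factors, and 4 are targets of the integrated stress response. The list sets no threshold on a measured value, but it was drawn up with earlier results of these data known.

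The study profiled regulatory T cells (Treg cells), the CD4+ T cells that carry the transcription factor Foxp3 and restrain other immune cells. Cells sorted as CD4+Foxp3+ were sequenced fresh from liver, lung, spleen, bone marrow, lymph node and peripheral blood, with 3 libraries a site and 18 in all. All 6 groups were wild-type and untreated, and they differed in the organ of origin. Libraries were made from polyadenylated RNA with a kit that marks strand. The strain, age and sex of the mice, the way Foxp3 was detected, the lymph nodes taken, and whether a library came from 1 animal or a pool are not given in the sources used here. The p-values therefore measure the spread between these libraries, which may be technical in part.

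The ER folds secreted and membrane proteins, and unfolded protein there activates the sensors IRE1 (encoded by Ern1), PERK (Eif2ak3) and ATF6. IRE1 splices Xbp1 mRNA into the form that encodes an active transcription factor, ATF6 is cut to release one, and PERK phosphorylates the translation factor eIF2 alpha. Other kinases that sense amino acid shortage, haem shortage or viral RNA phosphorylate the same factor, and this shared branch is called the integrated stress response. It slows general translation while Atf4 mRNA is translated more, and ATF4 then raises genes of amino acid supply and of recovery, among them Ppp1r15a (GADD34), which restores translation. Plasma cells, whose secretion is heavy, are the lymphocytes best known for high XBP1 activity. The tables give mRNA per gene and carry no measure of Xbp1 splicing, of phosphorylation or of protein.

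Expression is given as TPM, a gene's share of all transcripts in a library after correction for transcript length, so levels can be compared between genes as well as between organs. One sequenced read of a kilobase transcript was worth a mean of 0.379 TPM in liver, 0.232 in lung, 0.155 in spleen, 0.114 in bone marrow, 0.0866 in lymph node and 0.0823 in blood. Liver and lung were thus the shallowest libraries, and the median coefficient of variation of members at 10 TPM or more was 17.4% in liver and 9.14% in lung against 3.92% to 8.20% elsewhere. The 8 Treg markers were detected at 1 TPM or more in every organ, and mean Foxp3 ran from 88.6 TPM in blood to 239 TPM in lymph node. The summed level of 20 T cell genes was lowest in blood, at 5337 ± 55.2 TPM (SD, n = 3), and highest in lymph node, at 12486 ± 34.7. The blood and bone marrow libraries also held 30181 ± 451 and 39377 ± 148 TPM of 14 neutrophil and monocyte markers, against 102 ± 18.6 in lymph node, and in bone marrow all 10 granulocyte precursor markers were present, at a sum of 11125 ± 143. Blood stood apart by 9 platelet markers, at 3500 ± 48.7 TPM against means of 4.54 to 86.04 elsewhere, and by 10 cytotoxic and natural killer cell markers, at 729.6 ± 26.1 against 89.5 to 131. Erythroid markers were lowest in lymph node, at a sum of 74.5 ± 1.47 TPM, and highest in liver, at 11469 ± 520; bone marrow had 6467 ± 95.1, blood 2928 ± 89.2, spleen 1932 ± 76.5 and lung 1468 ± 62.8. A TPM value is a share of the whole library, so fewer cells of a type and less RNA per cell cannot be told apart, and transcripts of other cells lower every T cell value. For that reason the member counts of each comparison between organs are also given with every library scaled to the geometric mean of the 20 T cell genes. This is called the T cell scale. The F test counts, the counts of members with a motif and the counts of other pathway genes are given in TPM only.

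**Figure D1:**
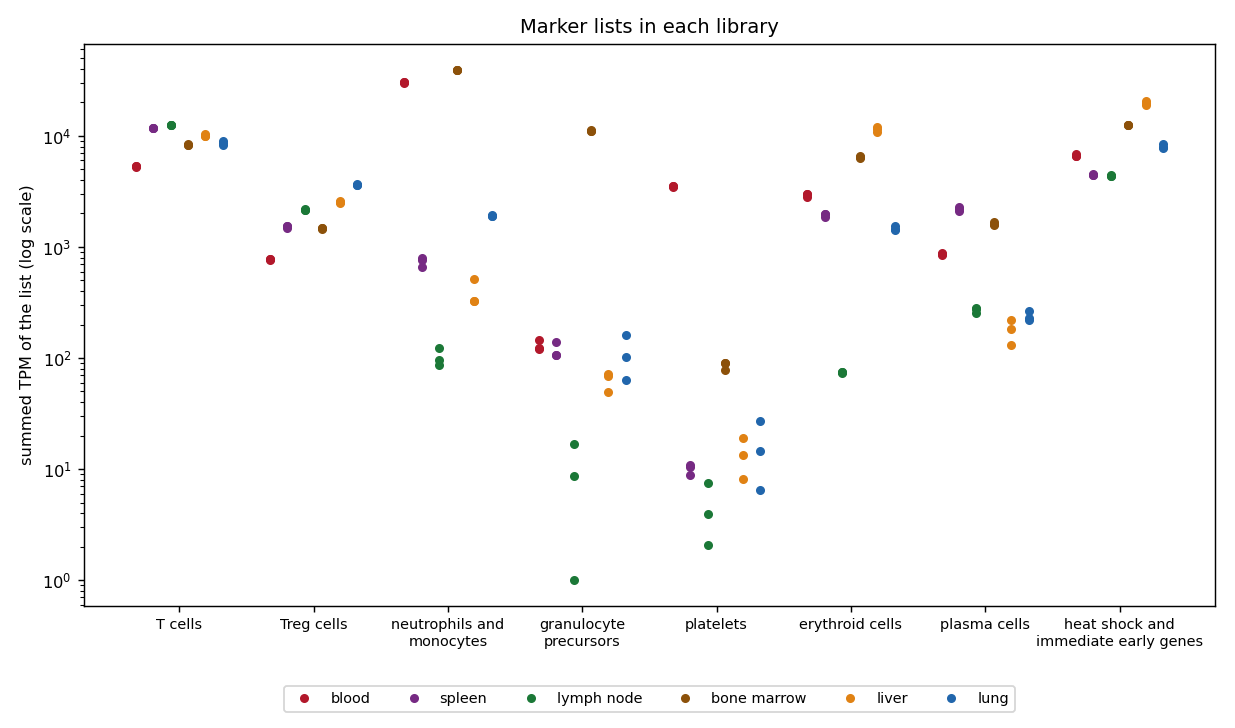
Summed TPM (log axis) of 8 marker lists in each of the 18 libraries, with 1 point a library and 1 colour an organ. Neutrophil and monocyte transcripts sat near 30181 TPM in blood and 39377 TPM in bone marrow and at 102 TPM in lymph node, while T cell transcripts were lowest in blood.

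Promoters of several of these genes are the ones from which the ER stress response elements were first described, so their sequences are shown before the expression values. In the RefSeq promoter table for GRCm38.p6, which runs from 250 bases before to 50 bases after each start, 29 of the 33 members had a window; Manf, Derl1, Hyou1 and Atf6 were not matched. The ER stress response element (ERSE, searched on both strands as CCAAT and CCACG with any 9 bases between) is the site at which ATF6 acts together with NF-Y. It stood in windows of 9 members (Calr, Canx, Creld2, Derl3, Dnajc3, Hsp90b1, Hspa5, Pdia6 and Syvn1) and in 0.119% of all 32851 windows. Its variant ERSE-II (ATTGG and CCACG with any 1 base between) stood in 2 members, Dnajb11 and Herpud1, against 0.0365% of windows, and the core of the XBP1-type element (TGACGTGG) stood in no member window and 0.676% of all. The site at which ATF4 pairs with a CCAAT enhancer binding protein (CARE, TGATGNAAN) stood in Asns, Chac1, Herpud1 and Trib3 and in 3.95% of all windows. The 8 stretches below are those to which the results return. They read 5′ to 3′ on the gene's strand, with the motif in capitals, in either orientation. They lie at chr2:34772020-34772048 (plus strand) for Hspa5, chr14:118937807-118937865 (plus) for Dnajc3, chr8:84847055-84847113 (minus) for Calr, and chr10:86705618-86705676 (minus) for Hsp90b1. The Herpud1 stretches lie at chr8:94386357-94386407 and chr8:94386296-94386344 (plus), that of Asns at chr6:7693219-7693237 (minus) and that of Chac1 at chr2:119351028-119351076 (plus).
Hspa5 ERSE: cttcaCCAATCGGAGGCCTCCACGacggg
Dnajc3 ERSE: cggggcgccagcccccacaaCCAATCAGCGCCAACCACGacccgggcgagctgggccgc
Calr ERSE: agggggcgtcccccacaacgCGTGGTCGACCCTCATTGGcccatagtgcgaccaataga
Hsp90b1 ERSE: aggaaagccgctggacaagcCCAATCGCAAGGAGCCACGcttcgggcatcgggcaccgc
Herpud1 ERSE-II: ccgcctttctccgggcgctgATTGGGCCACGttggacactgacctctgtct
Herpud1 CARE: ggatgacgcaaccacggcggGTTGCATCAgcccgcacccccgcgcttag
Asns CARE: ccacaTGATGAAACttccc
Chac1 CARE: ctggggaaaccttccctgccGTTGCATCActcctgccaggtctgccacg
The Hspa5 and Asns stretches lie before the RefSeq start but within the gene as annotated in GENCODE M21, and they touch an annotated exon there. A match describes these letters only, and binding was not measured.

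All 33 members reached a mean of 1 TPM in at least 1 organ and entered the fit, limma on log2(TPM + 1) over 16694 genes with Benjamini-Hochberg adjustment, which is the source of every adjusted p below. The F test over the 6 organs called 27 of the 33 members at an adjusted p under 0.05, and it called 68% of all genes tested. That background is high, so the results below are given by gene, with size and direction. The 6 members not called were Pdia6, Creld2, Derl2, Derl3, Sec61b and Ddit3. Without the blood and bone marrow libraries the F test called 19 of 32 members, against 48.1% of all genes. Every one of those 19 was among the 27.

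As a sum, the 33 genes took 3072 ± 46.8 TPM in lymph node, 3087 ± 81.1 in blood, 3318 ± 75.4 in spleen, 3855 ± 65.9 in bone marrow, 3893 ± 44.1 in lung and 3954 ± 94.2 in liver (SD, n = 3 each). The libraries of the last 3 organs overlapped each other and lay above the rest. The role groups did not share this order. Chaperones and foldases summed to between 2079 ± 66.0 TPM in blood and 2576 ± 42.7 in bone marrow, with lung and liver close to lymph node. Sensors and transcription factors ran from 255 ± 5.52 in lymph node to 571 ± 30.5 in lung. The 4 targets of the integrated stress response ran from 39.8 ± 3.66 in lymph node to 572 ± 50.8 in liver, a sum that Ppp1r15a carried at 566 ± 50.9 in liver, where Chac1 was listed at 0 and Trib3 had its lowest mean. Within each role group members had unlike orders of organs, as the heat map of the members shows.

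**Figure D2:**
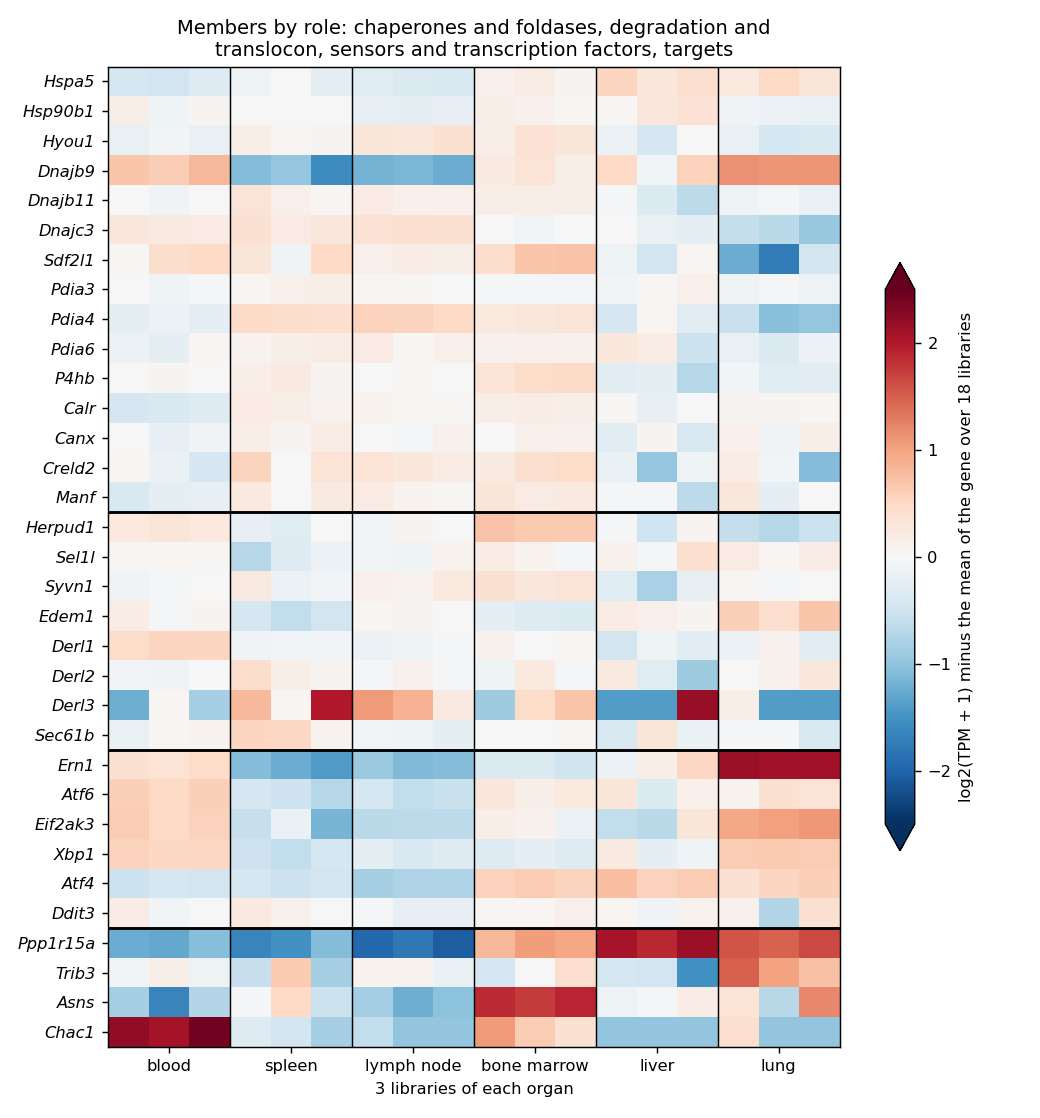
Level of each of the 33 members in the 18 libraries, as log2(TPM + 1) relative to the member's own mean over the libraries, with members ordered by role and libraries by organ. Ppp1r15a and Atf4 are high in every bone marrow, liver and lung library, Ern1 is highest in lung, and Chac1 is highest in blood.

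Ppp1r15a had the widest range of organ means of the 33 members, 3.97 on the log2 scale, followed by Ern1 (3.37), Chac1, Asns (2.91) and Dnajb9 (2.33). Ddit3, at 0.27, was next to the narrowest. Ppp1r15a, which brings a phosphatase to eIF2 alpha and so ends the translation block, was measured at 57.5, 56.3 and 65.1 TPM in blood, 42.8, 47.5 and 63.9 in spleen, 34.6, 39.1 and 32.0 in lymph node, 243, 285 and 271 in bone marrow, 576, 511 and 612 in liver, and 409, 385 and 433 in lung. Bone marrow, lung and liver followed each other without overlap, and all 9 of their libraries lay above all 9 of blood, spleen and lymph node. Liver exceeded lymph node by 3.97 on the log2 scale (SE 0.13, limma adjusted p = 1.58e-12), lung by 3.50 and bone marrow by 2.88. Spleen also exceeded lymph node, by 0.52 (SE 0.13, limma adjusted p = 0.0109), without overlap.

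Atf4 itself, the transcription factor of this branch, stood at 123, 132 and 129 TPM in blood, 131, 123 and 129 in spleen, 99.9, 105 and 104 in lymph node, 265, 276 and 263 in bone marrow, 302, 266 and 279 in liver, and 231, 260.4 and 271 in lung. The libraries thus formed 2 levels, blood, spleen and lymph node at 99.9 to 132 TPM and the other organs at 231 to 302 TPM. Bone marrow, liver and lung overlapped among themselves, as did blood and spleen. The difference from lymph node was 1.45 in liver (SE 0.06, limma adjusted p = 9.90e-11), 1.37 in bone marrow and 1.29 in lung. These differences were 1.71, 2.00 and 1.82 on the T cell scale.

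Ddit3 (CHOP), the transcription factor that promotes cell death under lasting ER stress, did not follow Atf4 in TPM. Its levels were 63.3, 52.8 and 55.2 TPM in blood, 66.1, 60.0 and 55.2 in spleen, 53.4, 48.1 and 48.1 in lymph node, 57.0, 57.6 and 60.7 in bone marrow, 57.3, 52.0 and 59.1 in liver, and 60.1, 33.2 and 72.5 in lung. Group means spanned 49.9 to 60.5 TPM, the lung libraries alone spanned more than that, and the F test gave an adjusted p of 0.762 (limma). None of the 9 comparisons called it in TPM. The F test did call it on the T cell scale (limma adjusted p = 2.59e-04). There it was called higher in blood than in each tissue. Bone marrow and lung were called above lymph node, by 0.84 and 0.60 (limma adjusted p = 0.00257 and 0.0248). Liver and spleen were not called against lymph node (limma adjusted p = 0.136 and 0.165). The annotation places Mars and Gm4189 on the opposite strand across this gene. Whether counting used strand is not stated in the sources used here. Opposite-strand genes also overlap Hsp90b1 (1810014B01Rik, at most 71.2 TPM), Manf (Dcaf1, 57.4), Derl2 (Mis12, 28.1) and Syvn1 (Mrpl49, 26.0), among other members. Gm15344, at most 37.5 TPM, overlaps Hsp90b1 on the same strand.

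Asns, asparagine synthetase, was highest in bone marrow. It stood at 21.7, 20 and 22.3 TPM there, against 2.5, 0.99 and 2.73 in blood, 5.05, 7.75 and 3.27 in spleen, 2.44, 1.67 and 2.04 in lymph node, 4.66, 5.09 and 6.02 in liver, and 6.92, 2.84 and 13.2 in lung. The bone marrow libraries lay above all others. Blood was 2.91 below bone marrow (log2 difference -2.91, SE 0.39, limma adjusted p = 2.42e-05). Lung exceeded lymph node by 1.32 (SE 0.39, limma adjusted p = 0.0118), with lung libraries that ranged from 2.84 to 13.2 TPM.

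Chac1, which degrades glutathione, was highest in blood. It stood at 8.20, 7.37 and 9.58 TPM in blood, 0.59, 0.44 and 0.11 in spleen, 0.30, 0 and 0 in lymph node, 3.13, 2.10 and 1.58 in bone marrow, and 1.61, 0 and 0 in lung, and it was listed at 0 in the 3 liver libraries. Blood lay above every other library, and bone marrow above spleen and lymph node. The difference between blood and bone marrow was 1.54 (SE 0.32, limma adjusted p = 0.00163), on a scale whose pseudocount understates changes of low genes. Blood against liver had the widest fitted difference (limma adjusted p = 7.54e-07), for which no fold is given since liver was at 0. Blood and bone marrow are the organs with the high neutrophil and monocyte sums given above, and blood is the organ with the high platelet and cytotoxic cell sums. The part of these cells in the Chac1 and Asns levels was not tested.

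Trib3, a pseudokinase that dampens ATF4 activity, was low throughout. It stood at 8.56, 5.86 and 4.70 TPM in lung, against 0.20 to 4.37 in the other 15 libraries. Lung exceeded lymph node by 1.07 (SE 0.38, limma adjusted p = 0.0326) without overlap. The CARE sequences shown for Asns, Chac1 and Herpud1 thus belong to genes whose highest organs were bone marrow, blood and bone marrow in turn. Of the 4 members with that motif, 3 were called higher in bone marrow than in lymph node (13.7% of all genes) and none in liver (9.45% of all genes); with 4 members nothing is read from these counts.

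**Figure D3:**
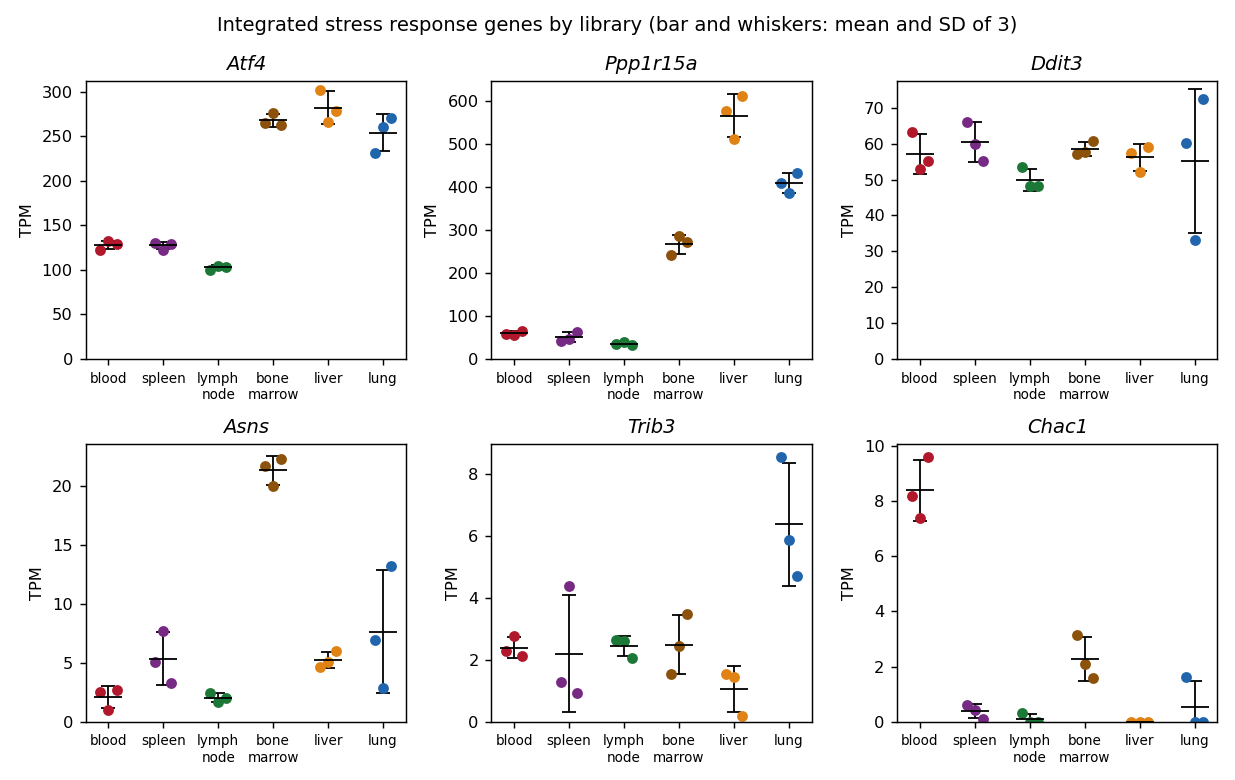
TPM of the integrated stress response genes in each library, by organ, with 1 point a library and bars and whiskers at the mean and SD of 3. Ppp1r15a reached 511 to 612 TPM in liver and Atf4 was at 231 to 302 TPM in bone marrow, liver and lung, while Ddit3 overlapped across organs.

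Among the sensors, Ern1 (IRE1) set lung apart. It was at 15.7, 15.3 and 16.7 TPM in blood, 5.06, 4.45 and 3.79 in spleen, 5.75, 4.97 and 5.02 in lymph node, 9.05, 9.04 and 8.09 in bone marrow, 10.6, 13.2 and 17.5 in liver, and 56.0, 53.8 and 54.4 in lung. Lung lay above all other libraries, liver overlapped blood, and bone marrow fell between these and spleen with lymph node. Lung exceeded lymph node by 3.16 (SE 0.16, limma adjusted p = 1.91e-10) and exceeded blood as well, with a difference of blood minus lung of -1.72 (SE 0.16, limma adjusted p = 2.17e-07).

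Eif2ak3 (PERK) was highest in lung and next in blood. It stood at 33.5, 30.5 and 32.4 TPM in blood, 13.9, 18.9 and 8.93 in spleen, 12.9, 13.2 and 13.1 in lymph node, 23.9, 22.9 and 19.1 in bone marrow, 13.5, 12.9 and 26.3 in liver, and 42.8, 44.3 and 46.2 in lung. Lung and blood did not overlap each other or any other organ. Lung exceeded lymph node by 1.69 (SE 0.24, limma adjusted p = 3.45e-05) and blood did so by 1.24 (SE 0.24, limma adjusted p = 6.84e-04). The liver group rested on unlike libraries, with replicate 3 at 26.3 TPM and the others near 13, and was not called against lymph node.

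Xbp1, which IRE1 splices, was high in the same organs as Eif2ak3. Its total mRNA was 143, 136 and 136 TPM in blood, 66.3, 61.8 and 69.9 in spleen, 81.0, 72.5 and 76.4 in lymph node, 76.1, 80.3 and 76.2 in bone marrow, 111, 81.5 and 87.6 in liver, and 148, 149.9 and 148 in lung. Blood and lung lay above every library of the other 4 organs, and spleen lay below them. Blood exceeded spleen by 1.06 (SE 0.09, limma adjusted p = 1.67e-07) and lung exceeded lymph node by 0.95 (SE 0.09, limma adjusted p = 5.54e-07). The 12 plasma cell markers, whose cells are rich in Xbp1, summed to 177 ± 43.8 TPM in liver, 237 ± 24.2 in lung, 269 ± 13.1 in lymph node and 869 ± 17.9 in blood; bone marrow had 1621 ± 51.9 and spleen 2200 ± 81.6. Igkc, which B cells also express, made up 1871 ± 78.6 TPM of the sum in spleen. The part of these cells in Xbp1 was not tested.

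Atf6 was highest in blood, at 17.01 ± 0.632 TPM (SD, n = 3), against 13.8 ± 1.59 in lung, 13.2 ± 0.623 in bone marrow, 11.6 ± 2.81 in liver, 7.39 ± 0.571 in lymph node and 7.32 ± 0.851 in spleen. Blood exceeded lymph node by 1.10 (SE 0.16, limma adjusted p = 5.09e-05) and lung did so by 0.81 (SE 0.16, limma adjusted p = 8.10e-04). The organ means of Ern1, Atf6 and Eif2ak3 were thus all lowest in spleen and lymph node, between which none of the 3 was called.

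**Figure D4:**
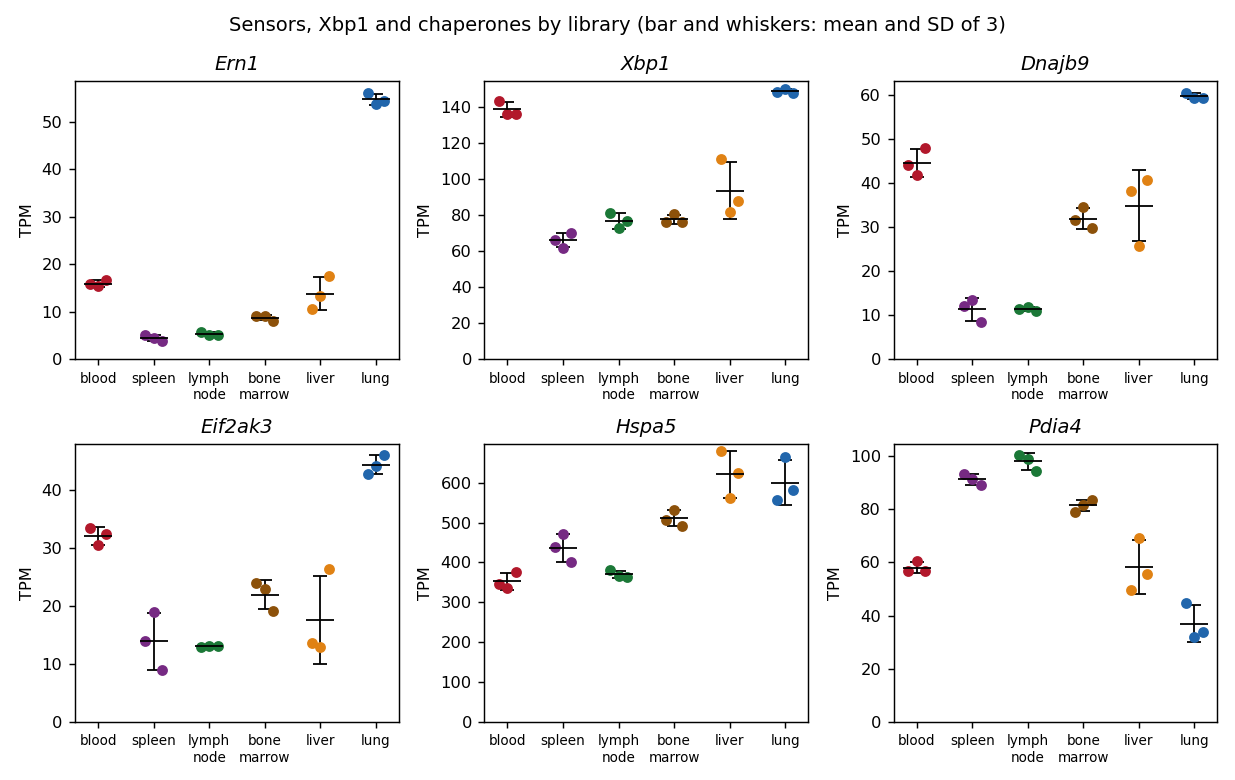
TPM of unfolded protein response genes in each library, by organ, with 1 point a library and bars and whiskers at the mean and SD of 3. Ern1 lay at 53.8 to 56.0 TPM in lung and at 17.5 TPM or less elsewhere, Xbp1 was high in blood and lung, and Pdia4 was lowest in lung.

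The chaperones moved in both directions. Hspa5 (BiP), the ER Hsp70 that holds the sensors inactive until unfolded protein draws it away, was at 345, 336 and 376 TPM in blood, 437, 472 and 400.0 in spleen, 380.0, 367 and 362 in lymph node, 507, 532 and 492 in bone marrow, 679, 561 and 624 in liver, and 556, 664 and 580.4 in lung. Blood overlapped lymph node at the bottom, and liver overlapped lung at the top. Spleen and bone marrow lay between, in that order. Liver exceeded lymph node by 0.74 (SE 0.08, limma adjusted p = 3.80e-06), lung by 0.69 and bone marrow by 0.46. Blood minus liver was -0.81 (SE 0.08, limma adjusted p = 5.00e-07) in TPM, but 0.13 (limma adjusted p = 0.118) on the T cell scale.

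Dnajb9 (ERdj4), a co-chaperone of BiP that acts on IRE1 and on degradation, had the widest range of the folding genes. It stood at 44.1, 41.8 and 48.1 TPM in blood, 12.2, 13.3 and 8.43 in spleen, 11.3, 11.8 and 10.9 in lymph node, 31.6, 34.5 and 29.8 in bone marrow, 38.3, 25.7 and 40.8 in liver, and 60.6, 59.4 and 59.5 in lung. Lung lay above all, blood came next, bone marrow and liver overlapped, and spleen and lymph node were lowest. Lung exceeded lymph node by 2.31 (SE 0.17, limma adjusted p = 1.58e-08).

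Pdia4, a protein disulfide isomerase, ran the other way. It was at 56.9, 60.4 and 56.7 TPM in blood, 93.5, 91.4 and 89.4 in spleen, 101, 99.0 and 94.6 in lymph node, 79.2, 81.8 and 83.5 in bone marrow, 49.5, 69.3 and 55.8 in liver, and 44.9, 31.9 and 33.9 in lung. Lung lay below all other organs and lymph node above them. Lung minus lymph node was -1.40 (SE 0.12, limma adjusted p = 1.27e-07), and -0.88 (limma adjusted p = 3.88e-05) on the T cell scale.

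Sdf2l1, which keeps substrates of BiP soluble, was at 25.6, 34.4 and 35.6 TPM in blood, 31.1, 23.6 and 35.9 in spleen, 27.3, 28.6 and 27.9 in lymph node, 34.4, 41.3 and 41.7 in bone marrow, 22.9, 17.6 and 25.7 in liver, and 10.02, 6.76 and 17.8 in lung. The lung libraries spread the most relative to their mean, and replicate 3 overlapped liver. Blood exceeded lung by 1.48 (SE 0.25, limma adjusted p = 1.82e-04). Dnajc3 (p58IPK), a co-chaperone that also inhibits PERK and related kinases, was lowest in lung too, at 22.9 ± 3.08 TPM against 50.8 ± 0.755 in lymph node, a difference of -1.12 (SE 0.10, limma adjusted p = 2.05e-07).

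Of the other folding genes, Calr, Canx, Pdia3 and Hsp90b1 were abundant and had ranges of organ means of 0.54, 0.35, 0.19 and 0.43 on the log2 scale, against 0.81 for Hspa5. Calr (calreticulin), the lectin chaperone of the ER lumen, was lowest in blood, at 326 ± 12.1 TPM, and between 406 ± 35.0 and 473 ± 7.59 in the other organs. Each of those 5 differences was called and each turned positive on the T cell scale. Its membrane partner Canx (calnexin) ran from 159 ± 27.4 in liver to 200.2 ± 8.59 in spleen, and Pdia3, the disulfide isomerase that works with both, from 240.1 ± 6.15 in lung to 275 ± 8.53 in spleen. Hsp90b1 (GRP94), the ER Hsp90, was at 279 ± 1.08 TPM in lymph node and 379 ± 44.1 in liver. The ERSE sequences of Hspa5, Dnajc3, Calr and Hsp90b1 shown above therefore belong to genes with unlike orders. Of the 9 members with that motif, Hspa5 was called higher (14.9% of all genes) and Dnajc3 lower (27.4% of all genes) in lung than in lymph node. The other 7 were not called in that comparison. With 9 members nothing is read from these counts.

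The remaining folding genes had ranges of 0.38 (Pdia6) to 0.83 (P4hb) on that scale. P4hb, a disulfide isomerase, was highest in bone marrow at 152 ± 8.19 TPM and lowest in liver at 86.0 ± 15.4. Hyou1, an Hsp110-type exchange factor for BiP, ran from 33.1 ± 3.41 in lung to 52.5 ± 1.79 in lymph node, and Dnajb11 (ERdj3), a further BiP co-chaperone, from 58.5 ± 12.2 in liver to 83.1 ± 7.74 in spleen. Manf, a secreted ER stress protein, was at 134 ± 8.32 in blood and 194 ± 6.45 in bone marrow. Pdia6, another disulfide isomerase, spanned 82.1 ± 6.60 in lung to 107 ± 3.44 in spleen, and Creld2, an ER stress-induced protein, 19.9 ± 6.15 in liver to 34.0 ± 3.06 in bone marrow. These last genes were not called by the F test, with adjusted p of 0.172 and 0.0617 (limma).

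Of the degradation genes, Herpud1 and Edem1 differed most among those well expressed. Herpud1, an adaptor of the membrane ubiquitin ligase complex, was at 73.2, 75.7 and 73.0 TPM in blood, 52.8, 49.4 and 60.6 in spleen, 58.3, 64.3 and 61.3 in lymph node, 102, 97.4 and 97.1 in bone marrow, 60.1, 43.2 and 64.7 in liver, and 40.1, 37.2 and 41.6 in lung. Bone marrow lay above all, blood next, and lung below all, with spleen, lymph node and liver overlapping between them. Blood exceeded lung by 0.88 (SE 0.12, limma adjusted p = 1.66e-05). Lung minus lymph node was -0.62 (SE 0.12, limma adjusted p = 6.13e-04), and -0.09 (limma adjusted p = 0.606) on the T cell scale.

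Edem1, a mannosidase-like protein that marks misfolded glycoproteins for disposal, had its peak where Herpud1 was lowest. It was at 139.9, 118 and 129 TPM in blood, 92.3, 79.7 and 88.9 in spleen, 128, 129 and 123 in lymph node, 103, 98.8 and 97.5 in bone marrow, 139.9, 135 and 129 in liver, and 187, 164 and 199 in lung. Lung was highest and spleen lowest, each without overlap, and blood overlapped lymph node and liver. Blood exceeded spleen by 0.56 (SE 0.08, limma adjusted p = 3.93e-05).

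Derl3, a derlin of the retrotranslocation machinery that is prominent in secretory cells, could not be placed. It was at 0.13, 1.71 and 0.49 TPM in blood, 3.64, 1.71 and 9.59 in spleen, 4.55, 3.80 and 2.06 in lymph node, 0.43, 2.62 and 3.27 in bone marrow, 0, 0 and 10.8 in liver, and 1.92, 0 and 0 in lung. The spread within spleen and liver exceeded the differences between organs, and the F test gave an adjusted p of 0.262 (limma), or 0.015 without liver replicate 3. Derl1, by contrast, was at 77.8 ± 2.45 TPM in blood and at 44.4 ± 5.74 to 56.2 ± 1.85 elsewhere, and blood was called higher in all 5 comparisons. Derl2 ran from 28.1 ± 10.8 to 39.9 ± 5.74 with no call by the F test (limma adjusted p = 0.231). Sel1l and Syvn1 (HRD1), the core of the ubiquitin ligase complex, spanned 25.6 ± 5.08 in spleen to 37.5 ± 6.16 in liver and 21.7 ± 4.76 in liver to 37.0 ± 1.46 in bone marrow. Sec61b, a subunit of the translocon, was at 156 ± 10.1 in lymph node and 228 ± 38.4 in spleen, and its F test stood at an adjusted p of 0.0501 (limma).

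Each organ was then set against lymph node, which had the lowest sums of neutrophil, granulocyte precursor, platelet and erythroid markers. These 4 comparisons share the lymph node libraries, so their counts are not independent. In lung, 11 members were higher (14.9% of all genes) and 5 lower (27.4% of all genes), and the median difference was 0.04 against -0.20 over all genes. The higher members were 5 of the 6 sensors and transcription factors (Ern1, Eif2ak3, Atf4, Xbp1 and Atf6), the targets Ppp1r15a, Asns and Trib3, and Dnajb9, Hspa5 and Edem1. The lower members were the folding genes Pdia4, Sdf2l1, Dnajc3 and Hyou1 and the degradation gene Herpud1. On the T cell scale 22 were higher (27.2% of all genes) and 3 lower (11.1%), the latter being Pdia4, Sdf2l1 and Dnajc3. Without liver replicate 1 or 3, which enter through the shared spread, 8 and 10 members were lower in lung in TPM. The F test then called 11801 and 11736 of all genes, against 11348 in the main fit. For fits without 1 library, here and below, shares of all genes per comparison were not taken, and nothing is read from such counts.

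In liver, 8 members were higher than in lymph node (9.45% of all genes) and 6 lower (21.6% of all genes), with a median of -0.13 against -0.19 over all genes. Ppp1r15a, Dnajb9, Atf4, Ern1, Hspa5, Atf6, Hsp90b1 and Xbp1 were the higher members. Pdia4, Syvn1, Dnajc3, Hyou1, Dnajb11 and P4hb were the lower ones. On the T cell scale 13 were higher (14.1% of all genes), and Pdia4 was the 1 lower member (9.63% of all genes; difference -0.49, limma adjusted p = 0.0102). With median-ratio scaling the counts were 11 and 3 (13.5% and 12.3% of all genes). Heat shock and immediate early genes, of which 20 were listed, are known to rise during tissue dissociation. Their sum was 19578 ± 795 TPM in liver, 12485 ± 99.8 in bone marrow and 8079 ± 378 in lung. It was 6663 ± 137 in blood, 4478 ± 85.5 in spleen and 4405 ± 68.7 in lymph node. The 3 organs with high Ppp1r15a and Atf4 were the 3 with the highest of these sums. Liver had the highest mean of each. Ppp1r15a was next in lung, at 409 TPM against 266 in bone marrow, and the sum was next in bone marrow. Atf4 overlapped among the 3 organs. On the T cell scale its difference from lymph node was greatest in bone marrow (2.00, against 1.82 in lung and 1.71 in liver). Erythroid markers were highest in liver and next in bone marrow, and they were lower in lung than in blood. The part of either list in these results was not tested.

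In bone marrow, 12 members were higher than in lymph node (13.7% of all genes) and 2 lower (8.89% of all genes), with a median of 0.15 against -0.004 over all genes. Asns, Ppp1r15a, Chac1, Dnajb9 and Atf4 differed by 1.37 or more, and Atf6, Eif2ak3, Herpud1, Ern1, Hspa5, P4hb and Hsp90b1 by 0.30 to 0.76. The lower members, Dnajc3 (-0.41) and Edem1 (-0.34), both turned positive on the T cell scale, where 29 members were higher (43.1% of all genes) and none lower (1.83%). With abundant RNA classes removed (mitochondrial, ribosomal protein and haemoglobin genes) the split was 9 higher and 4 lower (11.5% and 11.6% of all genes). The 39377 TPM of neutrophil and monocyte markers in these libraries lie beside every one of these differences, and their part was not tested.

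Spleen was the organ closest to lymph node. Sec61b (0.54), Ppp1r15a (0.52) and Atf4 (0.31) were higher and Edem1 (-0.54) lower, so 3 members were higher (4.44% of all genes) and 1 lower (9.87% of all genes). Without lymph node replicate 3 the higher count was 1, and without liver replicate 1 or lung replicate 2 it was 5. The lower count was 2 without spleen replicate 3 or without liver replicate 1. Abundant-class removal (4.56% and 5.99% of all genes) and median-ratio scaling (6.47% and 3.3%) each gave 7 higher and 1 lower, and the T cell scale gave 8 and 1 (6.63% and 2.53%).

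Blood was compared with each tissue, the contrast named in the study's title. These 5 comparisons share the blood libraries, in which the platelet, cytotoxic cell and myeloid sums given above stand beside every difference; their part was not tested. Against lymph node, 10 members were higher in blood (16.4% of all genes) and 3 lower (21% of all genes), with a median of 0.01 against -0.15 over all genes. Higher were Chac1, Dnajb9, Ern1, Eif2ak3, Atf6, Xbp1, Ppp1r15a, Derl1, Atf4 and Hsp90b1. Lower were Pdia4, Hyou1 and Calr, all of which turned positive on the T cell scale, where the split was 30 to 0 (60.4% and 1.52% of all genes). With median-ratio scaling it was 13 to 2 (20.9% and 11.2%) and with abundant classes removed 9 to 5 (14.9% and 22%). Without liver replicate 3 the lower count was 5.

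Against spleen, 10 members were higher in blood (20.1% of all genes) and 6 lower (15.3% of all genes), with a median of -0.05 against 0 over all genes. The higher members were Chac1, Dnajb9, Ern1, Eif2ak3, Atf6, Xbp1, Derl1, Edem1, Herpud1 and Sel1l. The lower ones were Asns, Pdia4, Calr, Manf, Hspa5 and Pdia3, and all but Asns turned positive on the T cell scale, where the split was 30 to 0 (58.3% and 2.29% of all genes). Median-ratio scaling gave 10 to 3 (21.7% and 13.3%) and abundant-class removal 8 to 10 (16.3% and 18.7%). Without blood replicate 2 or 3 the lower count was 3.

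Against bone marrow, 6 members were higher in blood (13% of all genes) and 11 lower (18.8% of all genes). The median was -0.17 against -0.11 over all genes. Both organs had high neutrophil and monocyte sums. The granulocyte precursor sum was 129 TPM in blood and 11125 in bone marrow, and the platelet sum 3500 and 86.0. Chac1, Xbp1, Ern1, Dnajb9, Derl1 and Edem1 were higher. Asns, Ppp1r15a and Atf4 were lower by 2.91, 2.14 and 1.06 on the log2 scale, and these 3 were also the members called lower on the T cell scale (7.16% of all genes), where 16 were higher (36.1%). The other lower members (Calr, Hspa5, Manf, Pdia4, Hyou1, Herpud1, P4hb and Syvn1) differed by -0.54 to -0.38 and turned positive there. Median-ratio scaling gave 10 higher and 5 lower (17.5% and 12.4%).

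Against liver, 10 members were higher in blood (23.3% of all genes) and 5 lower (16.1% of all genes), with a median of 0.11 against 0.07 over all genes. The lower members were Ppp1r15a (-3.22), Atf4 (-1.14), Asns (-1.07), Hspa5 (-0.81) and Calr (-0.32). The higher ones were Chac1, Eif2ak3, Derl1, Xbp1, Atf6, P4hb, Herpud1, Syvn1, Dnajc3 and Dnajb11. On the T cell scale 28 were higher (62.7% of all genes), and Ppp1r15a and Atf4 were the 2 lower (4.54%). Abundant-class removal gave 8 to 7 (20.7% and 17%), and median-ratio scaling 10 to 5 (24.5% and 15.2%).

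Against lung, 6 members were higher in blood (26.4% of all genes) and 8 lower (17.3% of all genes), with a median of 0.05 against 0.12 over all genes. Chac1, Sdf2l1, Dnajc3, Herpud1, Pdia4 and Derl1 were higher. Ppp1r15a (-2.76), Ern1 (-1.72), Asns (-1.35), Trib3 (-1.09), Atf4 (-0.98), Hspa5 (-0.76), Edem1 (-0.50) and Calr (-0.43) were lower. On the T cell scale 23 were higher (54% of all genes), and the 3 lower (7.13%) were Ppp1r15a, Ern1 and Atf4. Calr and Edem1 turned positive there. In these 5 comparisons the T cell scale moved the median difference over all genes to between 0.38 and 0.88, and against lymph node it moved it to 0.49 in bone marrow, 0.13 in lung, 0.02 in spleen and 0 in liver, so the added higher calls stand beside a shift of all genes.

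**Figure D5:**
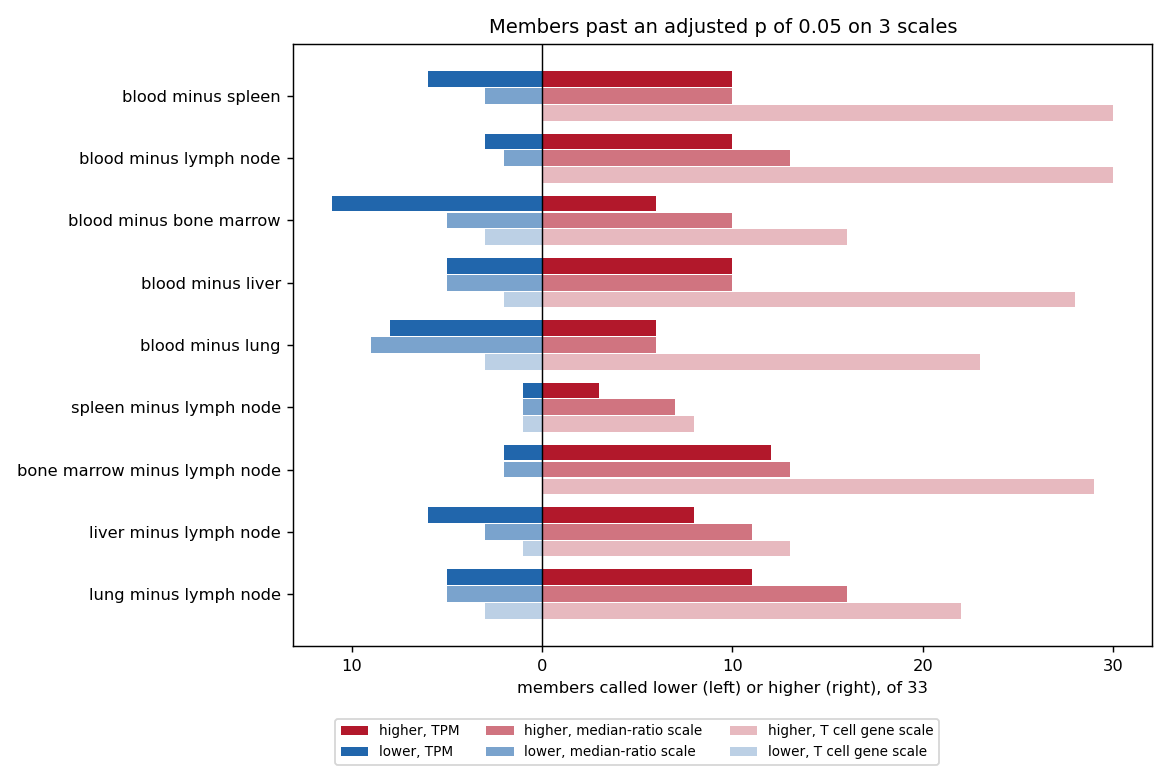
Number of the 33 members called lower (left) and higher (right) at a limma adjusted p under 0.05 in each comparison, in TPM, with median-ratio scaling and on the T cell scale. Blood minus spleen goes from 10 higher and 6 lower in TPM to 30 and 0 on the T cell scale, whereas lung minus lymph node keeps lower members on all 3 scales, with 5, 5 and 3.

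Other genes of the same pathways were read in the same fit. Of all genes the F test called 68%, and against lymph node 14.9% were higher and 27.4% lower in lung, 9.45% and 21.6% in liver, and 13.7% and 8.89% in bone marrow; the counts below are to be read beside these shares, and many lie near them. Of 23 further folding and glycoprotein quality control genes, 21 were called by the F test, 3 were higher and 10 lower in lung than in lymph node, and 1 was higher and 13 lower in liver. Mogs, the glucosidase that starts glycan trimming, fell from 73.0 ± 0.724 TPM in lymph node to 22.4 ± 5.07 in liver, while Erp29, a folding factor, and Ero1lb, an oxidase of disulfide formation, were highest in blood, at 178 ± 12.6 and 26.7 ± 1.83. Of 19 translocon and export genes, 17 were called, with 5 higher and 6 lower in lung and 4 higher and 5 lower in liver than in lymph node. Sec24d, a coat protein of ER export vesicles, was at 25.7 ± 3.31 TPM in liver and 7.86 ± 0.811 in lymph node. Kdelr2, which returns chaperones to the ER, peaked in bone marrow at 30.6 ± 0.878, and Ssr1, of the translocon-associated complex, in lung at 66.8 ± 14.0.

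Of 15 further degradation genes 12 were called, with 6 higher and 4 lower in lung and 1 higher and 7 lower in liver than in lymph node. Selenok was at 295 ± 60.3 TPM in lung and 111 ± 13.7 in lymph node, Edem3, a mannosidase related to Edem1, at 25.5 ± 1.64 and 14.9 ± 0.230, and Faf2 ran from 17.8 ± 5.79 in liver to 38.9 ± 0.578 in lymph node. Of 11 further transducers 9 were called, with 2 higher and 6 lower in lung and none higher and 6 lower in liver. Atf6b, the relative of Atf6, was at 20.1 ± 3.10 TPM in lung and 19.1 ± 4.72 in liver against 48.2 ± 3.44 in lymph node, so it went opposite to Atf6. Creb3l2, an ER-anchored factor, was at 12.5 ± 1.75 in lung and 6.11 ± 0.436 in lymph node, and Bbc3 (PUMA), a cell death gene, at 8.46 ± 1.28 and 23.8 ± 2.18.

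Of 36 further genes of the integrated stress response and the ATF4 programme 33 could be tested and 26 were called, with 6 higher and 10 lower in lung, 4 higher and 11 lower in liver, and 6 higher and 6 lower in bone marrow than in lymph node. Atf3, a factor induced along with Atf4, was at 84.3 ± 2.40 TPM in blood, 63.4 ± 26.1 in lung, 53.1 ± 10.9 in liver and 33.1 ± 0.525 in bone marrow, against 2.30 ± 0.689 in spleen and 0.657 ± 0.361 in lymph node. Cebpb, a partner of ATF4 that is also abundant in myeloid cells, was at 239 ± 26.9 in blood, 160.3 ± 10.98 in bone marrow, 129 ± 9.69 in lung and 8.94 ± 0.978 in lymph node. Nupr1, a stress-induced chromatin protein, was at 34.9, 34.0 and 30.8 TPM in blood and at 6.30 TPM or less in every other library, and was listed at 0 in lymph node. Chac1, Nupr1 and Cebpb were all highest in blood and lower in bone marrow. The neutrophil and monocyte sum was 30181 TPM in blood and 39377 in bone marrow, and the granulocyte precursor sum 129 and 11125. The platelet and cytotoxic cell sums were highest in blood. The part of those cells in these genes was not tested.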

How the data were processed

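Polyadenylated RNA of 18 Treg libraries (6 organs, 3 each) was analysed from the deposited TPM tables. The authors deposited 1 table of TPM per library, and STAR, RSEM and the mm10 build are named in the submitters' processing notes, without versions; annotation and strand setting are not given in the sources used here. TPM keeps no depth, but in genes with 1 transcript 72.4% to 90.0% of the low values in a library, up to 8 reads, lay within 0.1 read of a whole multiple of 1 step, which gave the read worth quoted above. Replicates of 1 organ are separate by the labels and are not stated to come from separate animals.

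Gene IDs were named with GENCODE M21. The test was limma 3.58.1 in R 4.3.3 (lmFit, then eBayes with trend and robust) on log2(TPM + 1), with a mean per organ, on the 16694 genes whose mean reached 1 TPM in an organ; p-values were Benjamini-Hochberg adjusted over these genes and called under 0.05. It was tested on simulated data. Standard errors are limma's and differences are on that log2 scale. Ddit3 is listed under 2 IDs, of which 1 is at 0 in every library and was not used.

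The members and lists were chosen with earlier results of these data known, so they give no independent support. All members are named. Values per library are given for Hspa5, Xbp1, Atf4 and Ddit3 and for the 3 members of each role group with the widest range of organ means, together with the F test or the called comparison with the greatest difference. In each list of other genes the 3 called genes with the widest range are named. Trib3 was given by library after its values were seen. Alternatives were another pseudocount, other filters, 3 scalings, array weights, pairwise fits, a replicate block and leaving out each library. Promoter sequences are from RefSeq (GRCm38.p6).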

Additional observations from a re-analysis of the deposited data

How the results depend on the processing

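The F test called 25 to 28 members when each library in turn was left out, beside 10719 to 11846 of all genes. Leaving out single libraries moved the lower counts to 3 to 8 for blood against spleen, 3 to 5 for blood against lymph node, 5 to 10 for lung against lymph node (8 without liver replicate 1, 10 without liver replicate 3) and 1 to 2 for spleen against lymph node, and the higher count of spleen against lymph node to 1 to 5; the other counts stayed within 1.5 times. Scaling mattered most. On the T cell scale the higher and lower counts were 30 and 0 (blood against spleen), 30 and 0 (lymph node), 16 and 3 (bone marrow), 28 and 2 (liver) and 23 and 3 (lung); against lymph node they were 29 and 0 in bone marrow, 13 and 1 in liver, 22 and 3 in lung, and 8 higher in spleen. Hspa5 in blood minus liver reversed there, to 0.13 (limma adjusted p = 0.118). With abundant RNA classes removed, blood was lower than spleen in 10 members and than lymph node in 5, spleen higher than lymph node in 7, and bone marrow lower in 4. Median-ratio scaling gave 3 members lower in blood than in spleen, 10 higher and 5 lower in blood than in bone marrow, 7 higher in spleen than in lymph node and 3 lower in liver. Array weights gave 12 lower in blood than in spleen, 12 lower than in lymph node, and against lymph node 6 higher and 4 lower in spleen and 4 lower in bone marrow. Fits of only the 2 organs compared gave 10 lower in blood than in lymph node and 4 higher in blood than in liver. Against lymph node they gave 2 lower in spleen, 4 in bone marrow, 3 in liver and 8 in lung. With array weights the F test called 12600 of all genes, against 11348 in the main fit. For array weights, these fits and the left-out libraries, shares of all genes per comparison were not taken. Nothing is read about the members from these counts. The cause of these shifts was not tested. Without liver, chosen after seeing the data like the fit without blood and bone marrow, the F test called 29 members (72.7% of all genes), of which 26 were shared. Of 123 calls over the 9 comparisons, 120 were also made with a replicate block, which made 122. Deviations from the organ means over all tested genes correlated at -0.034 to 0.03 over 45 pairs of same-numbered libraries. Over 90 pairs of different number they correlated at -0.035 to 0.04. No deviation shared by number was seen, but this cannot show whether same-numbered libraries came from the same animals. Depth limits Derl3, Trib3, Asns and Chac1 most, in liver and lung above all.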

Other observations

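Phgdh, Shmt2, Psph, Mthfd2 and Aldh18a1, enzymes of amino acid and one-carbon synthesis that ATF4 is known to raise, were lower in lung than in lymph node, where Atf4 mRNA was the lower; these genes were picked after their values were seen from the list of 36 ATF4 programme and integrated stress response genes. Of the 33 tested in that list, 10 were lower and 6 higher in lung, beside 27.4% and 14.9% of all genes, so the list's counts lie near those shares. Phgdh, the first enzyme of serine synthesis, was at 41.9 ± 1.48 TPM in lung and 132 ± 2.10 in lymph node (SD, n = 3 each), a log2 difference of -1.63 (SE 0.10, limma adjusted p = 2.34e-09). Shmt2, which passes serine carbon to folate in mitochondria, was at 25.6 ± 4.92 and 89.5 ± 2.37 (difference -1.78, SE 0.14, limma adjusted p = 6.60e-08), and Psph, the last enzyme of serine synthesis, differed by -1.62 (SE 0.32, limma adjusted p = 8.00e-04). These 3 stayed called on the T cell scale, at -1.10, -1.26 and -1.12. Mthfd2 (-0.96) and Aldh18a1 (-1.05) were called in TPM but not on the T cell scale, with limma adjusted p of 0.0866 and 0.0779 there, and Psat1 (-0.54) was not called in either. Slc3a2 and Slc7a11, amino acid transporter subunits of the same list, went the other way. Slc3a2 was at 281 ± 30.9 TPM in lung and 84.2 ± 1.09 in lymph node (difference 1.72, SE 0.08, limma adjusted p = 1.12e-10), and Slc7a11, its partner in cystine uptake, differed by 2.05 (SE 0.25, limma adjusted p = 5.72e-06). ATF4 protein was not measured.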
